A study of Mus musculus with 8 samples.

Results

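Regulators of G-protein signalling (RGS proteins) switch off signals from G protein coupled receptors. Such a receptor loads the α subunit of its G protein with GTP, and the RGS domain speeds the hydrolysis of that GTP, so that the subunit returns to its inactive state. In heart and vessels the family is known for limiting the responses to endothelin, angiotensin, lysophospholipids and catecholamines. The 10 genes described are Rgs2, Rgs3, Rgs4, Rgs5 and Rgs16 of the R4 subfamily of mostly small proteins, Rgs10, Rgs12 and Rgs14 of the R12 subfamily, and Rgs17 and Rgs19 of the RZ subfamily. They were found by symbol among the 56748 genes of the count table, and each symbol matched 1 row. These genes were chosen on measured values of the same comparison that is described here, TGF-β1 against untreated, so their levels and differences are a description and carry no test.

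The RNA came from primary fibroblasts of wild-type C57BL/6J mouse hearts, taken at 1 day of age and grown in serum-containing medium. The 4 untreated cultures received nothing further, and the 4 treated cultures received transforming growth factor β1 (TGF-β1, a secreted factor under which fibroblasts become contractile and lay down matrix) at 10 ng/mL for 48 h. The series design states that cultures came from different litters, and the labels do not say how many animals were behind a culture. Fibroblasts were enriched by brief adhesion to plastic from the digest of whole hearts, so other cardiac cells can persist.

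Library totals ran from 14340740 to 17176898 counts. Untreated replicate 1 stood apart in genes annotated as ribosomal RNA, which took 0.0322% of its counts against 1.05% to 2.47% in the other 7 libraries. Among markers of the labelled cell type, Col1a1 stood at 6974 CPM in untreated cultures (CPM, the read count scaled to a common library total), and all 10 fibroblast markers passed the count filter, of which 3 rose and 6 fell. The other markers summed over a list to 716 to 786 CPM for 10 cardiomyocyte genes in untreated libraries and 372 to 452 CPM in treated ones. All 10 of these fell. For 8 endothelial genes, of which 2 rose and 2 fell, the sums were 80.5 to 81.3 CPM against 75.3 to 83.1 CPM, and for 10 macrophage and blood cell genes 27.6 to 41.9 CPM against 28.9 to 39.1 CPM, with Cd3e, named after its values were seen, at 0 in every library. For 7 epicardial and mesothelial genes, of which 3 fell, they were 1121 to 1172 CPM against 880 to 909 CPM. All 10 cell division genes fell, and their sum was 356 to 391 CPM in untreated and 56.3 to 69.0 CPM in treated libraries. All 6 genes of fibroblast activation rose, with a sum of 8219 to 8837 CPM against 14843 to 15144 CPM. The most abundant gene of the cardiomyocyte list was Tnnt2, at 518 CPM in untreated and 298 CPM in treated cultures. In the other lists it was Tek (endothelial, 31.3 and 26.8 CPM), Csf1r (macrophage, 9.92 and 9.04 CPM), Upk1b (mesothelial, 283 and 275 CPM), Top2a (cell division, 81.3 and 11.02 CPM) and Lox (activation, 2353 and 5304 CPM). Tnnt2, Tek and Top2a fell and Lox rose, while Csf1r and Upk1b were not called. In RNA from whole cultures, a change in the number of cells of a type and a change in RNA per cell cannot be told apart.

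Among the 10 genes, the largest differences belonged to Rgs5 and Rgs4, which lie next to each other on chromosome 1, and to Rgs17. Their upstream sequences are shown because these 3 genes had the highest fold changes among those 10. Each run covers positions −250 to −51 from the RefSeq transcription start, read 5′ to 3′ in the direction of the gene, and ends before the first exon in the GENCODE M39 annotation. The sequences are credited to RefSeq (GRCm38.p6) and matched the GRCm39 genome exactly and once, at chr1:169575262-169575461 on the minus strand for Rgs4, chr1:169482820-169483019 on the plus strand for Rgs5 and chr10:5872451-5872650 on the minus strand for Rgs17. Capitals mark the SMAD box CAGAC in Rgs4 and the AP-1 motif TGACTCA in Rgs17.
Rgs4: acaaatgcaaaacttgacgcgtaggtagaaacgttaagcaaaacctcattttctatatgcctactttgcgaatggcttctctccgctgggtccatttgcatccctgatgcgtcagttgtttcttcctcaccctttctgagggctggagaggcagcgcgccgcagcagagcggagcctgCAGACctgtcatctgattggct
Rgs5: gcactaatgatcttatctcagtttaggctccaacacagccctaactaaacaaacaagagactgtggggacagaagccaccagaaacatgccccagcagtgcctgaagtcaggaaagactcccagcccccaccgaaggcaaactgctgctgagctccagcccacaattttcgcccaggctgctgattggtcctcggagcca
Rgs17: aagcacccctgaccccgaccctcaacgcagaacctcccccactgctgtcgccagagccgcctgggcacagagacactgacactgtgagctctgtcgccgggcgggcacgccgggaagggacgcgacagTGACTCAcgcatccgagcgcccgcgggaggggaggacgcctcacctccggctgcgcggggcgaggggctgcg

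Upstream windows of 250 bases were found in the RefSeq table for 9 of the 10 genes, as 13 windows, since Rgs3, Rgs12 and Rgs19 have alternative starts. Both strands were searched for CAGAC, a short element bound by SMAD proteins, which carry the TGF-β signal to the nucleus. It occurred upstream of 5 of the 9 genes, namely Rgs2, Rgs3, Rgs4, Rgs12 and Rgs16, each in 1 window, so in 5 of their 13 windows. In Rgs3 and Rgs12 that window lies at an alternative start, 59825 and 49633 bases from the gene start, and the window at the gene start held none. Of all 32851 promoter windows of that length, 42.2% held it. The AP-1 motif, TGACTCA or its complement TGAGTCA, occurred in 1 window each of Rgs12, at the same alternative start, and Rgs17. That is 2 of the 13 windows, against 4.46% of all windows. The SMAD palindrome GTCTAGAC, the cyclic AMP response element TGACGTCA and the TEAD motif CATTCC were in none of the windows of the 9 genes, against 0.167%, 1.55% and 12.6% of all windows. CAGAC began at position −72 in Rgs4, and in Rgs5 none of the 5 motifs was present. A GC content of 53.6% in both the Rgs4 and the Rgs5 window compares with 72.4% in Rgs17.

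In the R4 subfamily, Rgs4 and Rgs5 were the genes with the clearest separation of the groups. Rgs4 (ENSMUSG00000038530, GRCm39 chromosome 1, 169569046 to 169575211, minus strand) encodes a small GTPase-activating protein for Gi and Gq α subunits. Its level was 2.72, 3.52, 4.04 and 2.98 CPM in untreated replicates 1 to 4 and 10.7, 12.4, 11.96 and 11.2 CPM in the treated ones. All treated libraries lay above all untreated libraries, with a wide gap. The means were 3.32 ± 0.59 and 11.6 ± 0.77 CPM (SD, n = 4 and 4). On the log2 scale they differed by 1.81 ± 0.14 (SE), or 3.49-fold.

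Rgs5 (ENSMUSG00000026678, chromosome 1, 169483070 to 169523382, plus strand) encodes a related small protein that is widely used as a marker of pericytes. It gave 15, 11, 8 and 12 reads in the untreated libraries, which correspond to 0.996, 0.730, 0.539 and 0.716 CPM. In the treated libraries it gave 61, 47, 54 and 78 reads, or 4.30, 3.25, 3.80 and 4.65 CPM. The groups did not overlap. The exact 95% Poisson interval was 8.40 to 24.7 reads for the highest untreated count and 34.5 to 62.5 reads for the lowest treated count. These intervals cover counting error only and are no test of the difference. The means were 0.745 ± 0.19 and 4.00 ± 0.61 CPM (SD, n = 4 and 4). The difference of 2.42 ± 0.25 on the log2 scale (SE), or 5.33-fold, was the highest among the 9 RGS genes tested. Rgs5 was low enough in untreated cultures that it passed the count filter through the treated libraries, and passing in this way favours genes that differ.

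The Rgs4 to Rgs5 ratio of reads was 2.73 to 7.50 in untreated libraries and 2.41 to 3.83 in treated ones, and these ranges overlapped. Per length, Rgs4 was 4.01 to 11.01 times the level of Rgs5 in untreated and 3.54 to 5.62 times in treated libraries. Rgs4 thus had the higher level of the pair in all 8 libraries.

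Rgs2 (ENSMUSG00000026360, chromosome 1, 143875076 to 143879899, minus strand) encodes a protein with preference for Gq. It stood at 1.66, 1.72, 2.63 and 2.80 CPM in untreated and 3.10, 2.07, 4.64 and 3.94 CPM in treated libraries. The groups overlapped, with treated replicate 2 below untreated replicates 3 and 4. Its log2 fold change was 0.64 ± 0.25 (SE), with a coefficient of variation of 27.0% among untreated and 32.2% among treated libraries, beyond the 17.1% and 13.9% that read counting alone would give.

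Rgs16 (ENSMUSG00000026475, chromosome 1, 153616095 to 153621214, plus strand), whose product acts on Gi and Gq, stood at 3.25, 3.52, 3.98 and 3.82 CPM against 4.51, 4.56, 4.43 and 4.53 CPM. The treated libraries lay above the untreated ones by a small margin. The log2 fold change was 0.31 ± 0.16 (SE). The treated values had a coefficient of variation of 1.23%, where read counting at this depth gives 12.2%, so their closeness is tighter than the precision of each value.

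Rgs3 (ENSMUSG00000059810, chromosome 4, 62478084 to 62622238, plus strand) encodes short and long proteins from alternative starts, which gene counts do not separate. It was the R4 gene with a lower level after treatment, at 26.1, 25.1, 25.7 and 25.6 CPM in untreated and 23.3, 22.3, 20.5 and 21.1 CPM in treated libraries. The groups did not overlap, although the log2 fold change was only −0.24 ± 0.07 (SE).

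**Figure D1:**
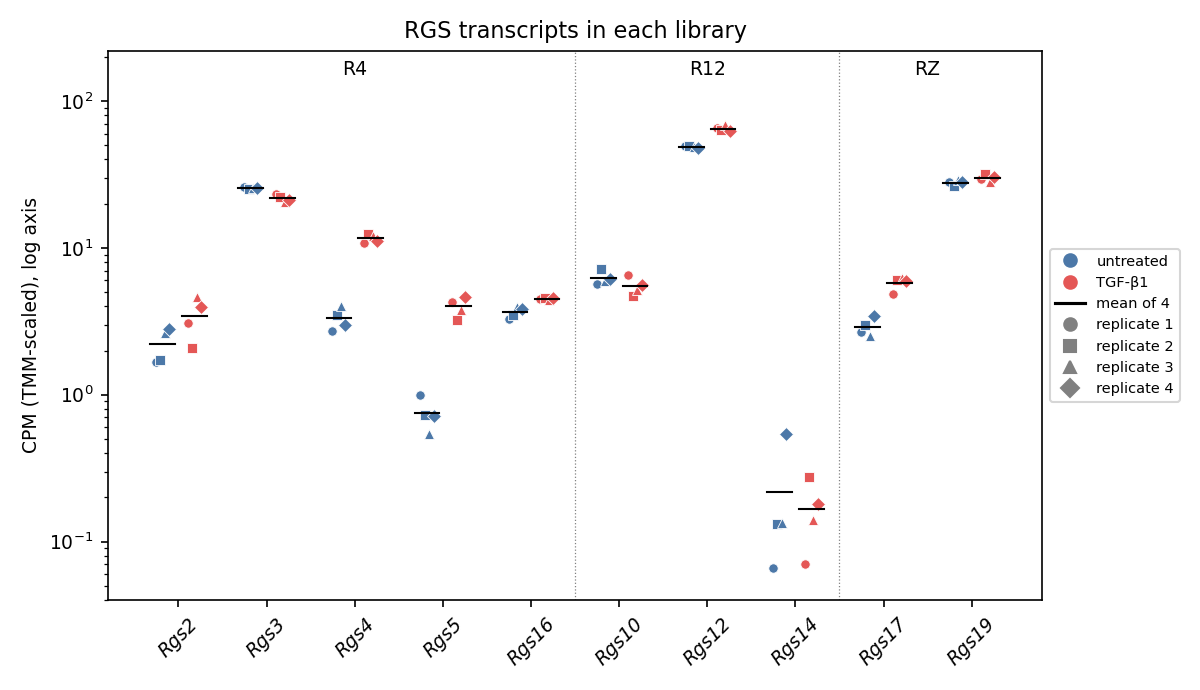
Level of each RGS gene in each library, in CPM on a log axis, grouped by subfamily, with a marker per replicate number and a black bar at the mean of 4 libraries. Rgs4 and Rgs5 stand from 2.72 to 4.04 and from 0.539 to 0.996 CPM in untreated libraries and from 10.7 to 12.4 and from 3.25 to 4.65 CPM in treated ones, while the groups of Rgs2, Rgs10, Rgs14 and Rgs19 overlap.

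Of the R12 genes, only Rgs12 had groups that did not overlap. Rgs12 (ENSMUSG00000029101, chromosome 5, 35106789 to 35196988, plus strand) encodes a large scaffold with PDZ, Ras-binding and GoLoco domains beside its RGS domain. It had the highest CPM of the 10 genes, at 49.5, 49.1, 48.5 and 48.1 in untreated and 65.1, 63.5, 68.5 and 62.7 in treated libraries. The groups stood well apart, with a log2 fold change of 0.41 ± 0.05 (SE), or 1.33-fold.

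Rgs10 (ENSMUSG00000030844, chromosome 7, 127975345 to 128020482, minus strand) encodes a small protein that acts on Gi and is abundant in macrophages and microglia. It stood at 5.64, 7.16, 5.93 and 6.14 CPM in untreated and 6.56, 4.70, 5.14 and 5.61 CPM in treated libraries. These ranges overlapped, and the log2 fold change of −0.18 ± 0.14 (SE) was close to its error. Macrophage and blood cell markers, of which 1 of 8 tested genes rose and none fell, also overlapped in their sums. Their part in the level of Rgs10 was not tested.

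Rgs14 (ENSMUSG00000052087, chromosome 13, 55517545 to 55532500, plus strand), a scaffold with Ras-binding and GoLoco domains known from the brain, gave 1, 2, 2 and 9 reads in untreated and 1, 4, 2 and 3 reads in treated libraries. It did not pass the count filter, and no difference was detectable at this depth.

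In the RZ subfamily, the groups were apart for Rgs17 and overlapped for Rgs19. Rgs17 (ENSMUSG00000019775, chromosome 10, 5775663 to 5872400, minus strand), whose product acts on Gz and Gi, stood at 2.66, 2.98, 2.49 and 3.46 CPM in untreated and 4.87, 6.01, 6.19 and 5.96 CPM in treated libraries. The lowest treated library, replicate 1, was still above the highest untreated library. The log2 fold change was 0.98 ± 0.17 (SE), or 1.98-fold. Rgs19 (ENSMUSG00000002458, chromosome 2, 181330212 to 181335770, minus strand), a Gi regulator associated with vesicles, stood at 28.3, 26.2, 29.0 and 27.9 CPM against 29.4, 32.0, 27.9 and 30.2 CPM. The groups overlapped, and the log2 fold change was 0.10 ± 0.07 (SE).

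Of the 10 genes, 9 passed the count filter. The quasi-likelihood test of edgeR (Benjamini-Hochberg adjusted p under 0.05 over all 13960 genes tested) called 6 of them, 5 higher (Rgs2, Rgs4, Rgs5, Rgs12 and Rgs17) and 1 lower (Rgs3), while it called 36% of all tested genes, 17.6% higher and 18.5% lower. The CPM ranges of the groups were apart for 6 genes, 5 higher (Rgs4, Rgs5, Rgs12, Rgs16 and Rgs17) and 1 lower (Rgs3). Over all tested genes they were apart in 33.9%, 16.5% higher and 17.4% lower. Without TMM scaling, on library totals, 1301 of all genes were called higher and 3673 lower in place of 2451 and 2579, and of the RGS genes 4 higher and 1 lower. Because the genes were chosen from this comparison, nothing is read from these counts. The call of Rgs2 was lost when any of untreated replicates 1 or 2 or treated replicates 1, 3 or 4 was left out.

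**Figure D2:**
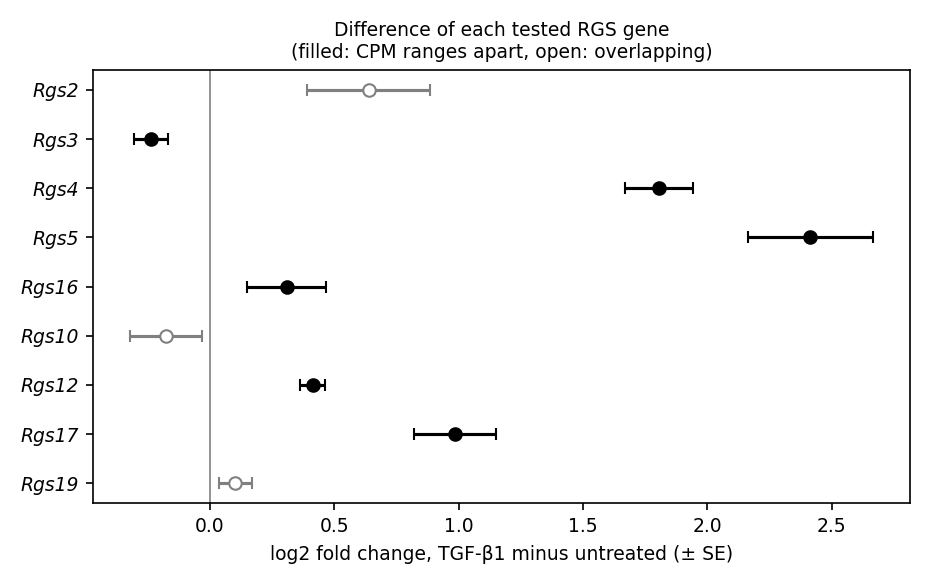
Log2 fold change of the 9 RGS genes that passed the count filter, TGF-β1 minus untreated, with the SE of the edgeR fit as bars. Filled points mark genes whose CPM ranges were apart between the groups, and the values run from −0.24 for Rgs3 to 2.42 for Rgs5.

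Levels were compared between genes per length, on the FPKM scale of the authors (fragments scaled to gene length and by 1 factor per library). That factor was not the library total. The median log2 fold change over all tested genes was 0.005 on log2(FPKM + 1) and −0.07 on library totals. In untreated cultures the order was Rgs19 (12.3 ± 0.51 FPKM, SD, n = 4), Rgs12 (5.65 ± 0.068), Rgs10 (3.58 ± 0.38), Rgs3 (2.34 ± 0.036), Rgs16 (1.53 ± 0.13), Rgs4 (1.05 ± 0.18), Rgs2 (0.598 ± 0.16), Rgs17 (0.344 ± 0.051), Rgs5 (0.161 ± 0.041) and Rgs14 (0.0506 ± 0.050). Each gene lay above the next in all libraries of this group, except that the ranges of Rgs5 and Rgs14 overlapped. After TGF-β1, Rgs19 (13.2 ± 0.75 FPKM, SD, n = 4) and Rgs12 (7.53 ± 0.30) kept the first places, and Rgs4 (3.68 ± 0.24) ranked 3, with a range that overlapped that of Rgs10 (3.16 ± 0.46). Rgs3 and Rgs16 then overlapped, as did Rgs2 (0.933 ± 0.30) with Rgs5 (0.866 ± 0.13) and Rgs5 with Rgs17 (0.683 ± 0.071). Rgs14 was last in both groups. The length used by the authors is 1 value per gene, so genes with isoforms of different length, such as Rgs3 and Rgs12, are placed less surely.

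The summed FPKM of the 10 genes was 27.1 to 28.2 in untreated and 33.6 to 34.2 in treated libraries. Rgs4 added 2.63 FPKM to the difference, Rgs12 added 1.88, Rgs19, whose groups overlapped and which was not called, added 0.904 and Rgs5 added 0.705. Rgs16, Rgs17 and Rgs2 added 0.366, 0.339 and 0.335, while Rgs10, Rgs3 and Rgs14 went the other way, by −0.413, −0.351 and −0.0119. The R4 genes made up 20.6% of the sum in untreated libraries (range 19.5% to 21.7%) and 27.6% in treated ones (26.9% to 28.6%). The summed level of the RZ genes was also higher, at 12.6 ± 0.49 and 13.9 ± 0.76 FPKM (SD, n = 4 and 4), and so was that of the R12 genes, at 9.28 ± 0.39 and 10.7 ± 0.52 FPKM. The RZ sums were barely apart, with a highest untreated value of 13.04 and a lowest treated value of 13.05 FPKM. Shares of the larger total were 45.8% and 40.8% for RZ, with no overlap of the ranges, and 33.7% and 31.6% for R12, with ranges that overlapped.

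**Figure D3:**
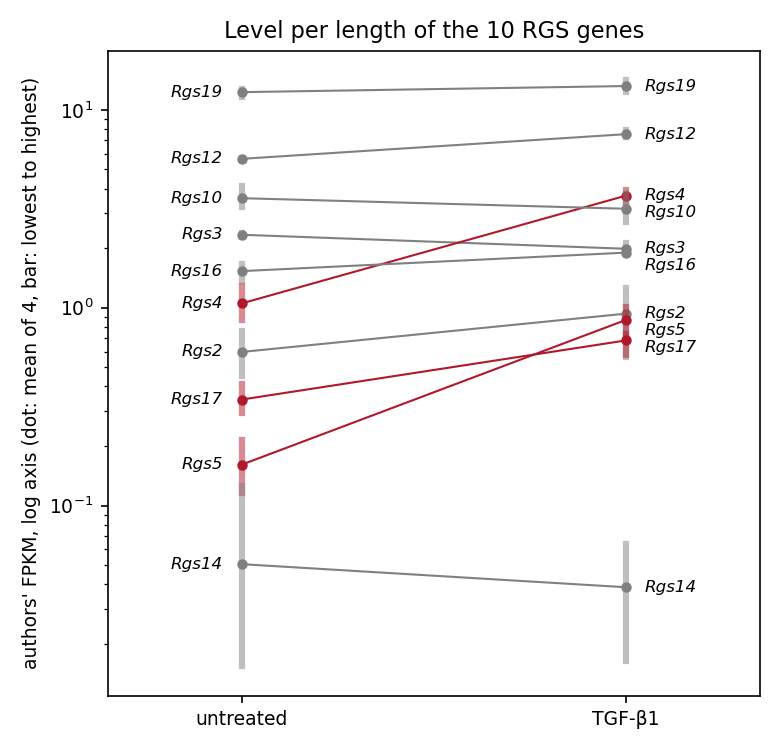
Level per length of the 10 RGS genes in FPKM of the authors on a log axis, with a dot at the mean of 4 libraries and a bar from the lowest to the highest library. Rgs4 moves from 1.05 to 3.68 FPKM past Rgs3, Rgs10 and Rgs16, and Rgs5 moves from 0.161 to 0.866 FPKM past Rgs17, while Rgs19 and Rgs12 stay on top.

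Position was not used in the choice of the genes. Of the 10 genes, 4 lie on chromosome 1, where Rgs1, Rgs8, Rgs13 and Rgsl1 also lie, so nothing is read from that number. Rgs5 and Rgs4 face each other there with a gap of 45664 bases, and no other gene of the count table lies in that gap. Both were chosen on this comparison, so their common rise carries no test. Of the genes within 500000 bases of Rgs5, 6 besides itself were tested. Nuf2, a kinetochore gene on the other side of Rgs5 at a distance of 124037 bases, fell by 3.30 ± 0.20 on the log2 scale (SE, edgeR adjusted p = 6.23e-12), from 12.4 to 1.23 CPM. All 10 cell division markers also fell, with a median log2 fold change of −2.84, and their part in the fall of Nuf2 was not tested. Of the other neighbours, Hsd17b7 changed by −0.26 ± 0.05, Ddr2 by −0.15 ± 0.04 and Uhmk1 by 0.25 ± 0.04, and Uap1 was not called (0.11 ± 0.06, edgeR adjusted p = 0.142). These neighbours are named after their values were seen.

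Rgs2 and Rgs16 also have RGS genes within 500000 bases. Near Rgs2, Rgs13 gave no read at a distance of 134493 bases, and Rgs1, at 238135 bases, gave 65 reads over the untreated and 57 over the treated libraries. Beside Rgs16, Rgs8 gave 5 reads and Rgsl1 gave 4 reads over the untreated libraries and none over the 61388289 counts of the treated ones, which allows a level of up to 0.0489 CPM.

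**Figure D4:**
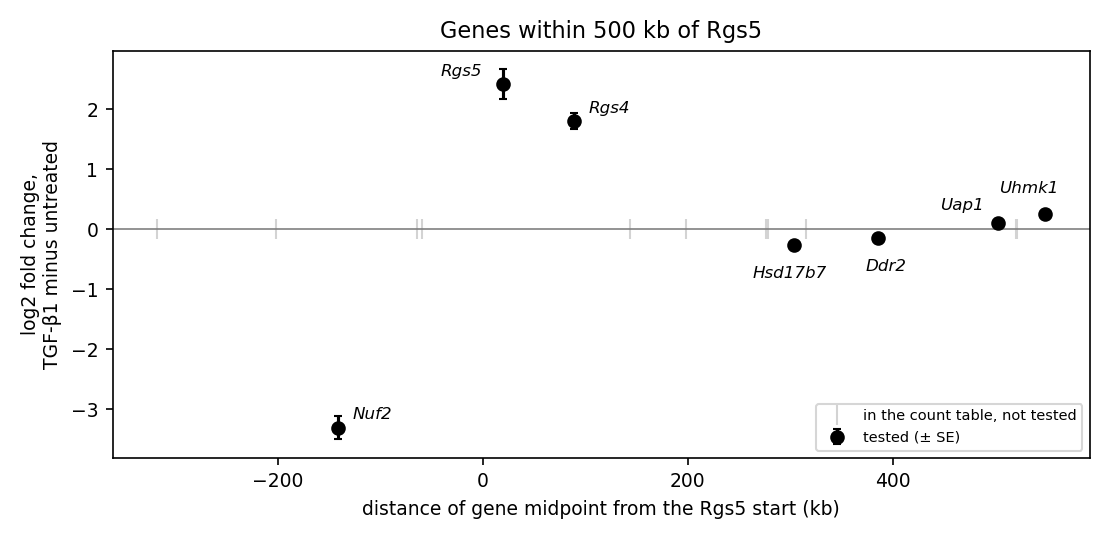
Log2 fold change (TGF-β1 minus untreated, ± SE) of the tested genes within 500000 bases of Rgs5, by the distance of their midpoint from the start of Rgs5 in kilobases, with grey ticks for genes of the count table that were not tested. Rgs5 (2.42) and Rgs4 (1.81) stand together above 0, and Nuf2 (−3.30) is on the other side of Rgs5.

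Exons shared with genes of the opposite strand make part of some counts uncertain, since no source used here says whether reads were counted by strand. In GENCODE M39 such exons cover 18.7% of the exonic bases of Rgs16, 15.8% of Rgs19, 11.3% of Rgs2 and 6.99% of Rgs12. For Rgs19 the other gene is Tcea2, which was not called (0.06 ± 0.23 on the log2 scale, edgeR adjusted p = 0.858). Rgs3, Rgs4, Rgs5, Rgs10, Rgs14 and Rgs17 share no exonic base with another gene there.

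Because Rgs5 is used as a pericyte marker, 8 other markers of mural cells were read in the same libraries. Of the 5 tested, Cspg4 (1.60 ± 0.08, SE) and Cnn1 (1.00 ± 0.09) rose, Notch3 (−0.57 ± 0.06) and Des (−0.34 ± 0.07) fell, and Myh11 had a log2 fold change of −0.07 ± 0.21 (edgeR adjusted p = 3.68e-13 for Cspg4, 4.20e-09 for Cnn1, 3.65e-08 for Notch3, 0.000419 for Des and 0.828 for Myh11). Kcnj8, Abcc9 and Higd1b, which define heart pericytes, did not pass the filter, at 0 to 4, 2 to 14 and 0 to 3 reads per library. The sum over the 8 genes was 109 to 115 CPM in untreated and 135 to 149 CPM in treated libraries. Apart from Notch3, these genes are named after their values were seen. The part of mural cells in the levels of Rgs4 and Rgs5 was not tested.

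Of 12 further RGS genes, 3 were tested, and Rgs6, a neuronal and cardiac member of the R7 subfamily, fell. Rgs6 stood at 1.26, 2.26, 1.95 and 2.62 CPM in untreated and 0.635, 0.760, 0.141 and 1.13 CPM in treated libraries. The groups did not overlap, and the difference was −1.56 ± 0.37 on the log2 scale (SE, edgeR adjusted p = 0.00197). Rgs6 passed the count filter through the untreated libraries, which favours genes that differ, and its lowest treated library held 2 reads. Rgs6 is also expressed in heart muscle, and all 10 cardiomyocyte markers fell in these libraries, with Tnnt2 at −0.80 ± 0.05. Their part in the fall of Rgs6 was not tested. Rgs1 and Rgs7, like the neighbours above named after their values were seen, were not called, 7 genes with reads did not pass the filter and 2 had none.

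The substrates of RGS proteins are the Gα subunits, of which 11 of 16 genes were tested, 1 rose and 3 fell (1 and 5 on library totals). The median log2 fold change of this list was −0.01, against 0.01 over all tested genes. Of all tested genes 36% were called, 17.6% higher and 18.5% lower. The counts of called genes in this and the other gene lists are a description beside that share. Gnaq, the α subunit that activates phospholipase C, rose from 82.1 to 106 CPM (0.37 ± 0.04, SE, edgeR adjusted p = 2.57e-07). Gnai1, an inhibitor of adenylyl cyclase, fell from 19.8 to 10.3 CPM (−0.94 ± 0.09, edgeR adjusted p = 9.82e-09). Gnao1 fell by 0.48 ± 0.09, and Gnas, the stimulatory subunit, fell by 0.17 ± 0.07 with an adjusted p close to the threshold (edgeR adjusted p = 0.0493). The Gnas groups overlapped, with treated replicate 2, at 124 CPM, above every untreated library (up to 119 CPM). With RLE scaling or DESeq2, 3 genes of this list were called in place of 4, and 3 or 4 with 1 library left out. The most abundant subunit gene, Gnai2, was at 690 and 676 CPM (−0.03 ± 0.03, edgeR adjusted p = 0.528).

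Of the β and γ subunit genes, 3 of 10 tested rose and 2 fell, with a median of 0.06. On library totals this balance turned, to 1 higher and 3 lower. Gng2 rose by 0.64 ± 0.12 (SE) and Gnb1, the most abundant, by 0.09 ± 0.03, whereas Gng12 and Gng11 fell by 0.14 ± 0.04 and 0.26 ± 0.09. Without untreated replicate 1, 2 or 4, 3, 2 and 2 genes of this list were called in place of 5.

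Other proteins with an RGS-like domain were called in 6 of 13 tested cases, 2 rising and 4 falling, with a median of −0.02 (0 and 5 on library totals). Those that fell were Grk6, a receptor kinase, and the exchange factors Arhgef1 (−0.24 ± 0.05, SE, edgeR adjusted p = 0.000532), Arhgef11 (−0.19 ± 0.05) and Arhgef12 (−0.18 ± 0.05). The 2 that rose were Grk5 (0.14 ± 0.04) and Akap10 (0.15 ± 0.06), both named after their values were seen.

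Among receptors, changes went in both directions. Of 46 receptor genes, 32 were tested, 7 rose and 14 fell, with a median log2 fold change of −0.31 (3 and 14 on library totals). Ednrb, the endothelin B receptor gene, went from 9.10, 10.0, 10.3 and 11.5 CPM in untreated to 43.2, 43.4, 47.2 and 44.7 CPM in treated libraries, which is 2.12 ± 0.08 on the log2 scale (SE, edgeR adjusted p = 1.59e-15), with no overlap. F2r, the thrombin receptor and the most abundant gene of the list, rose from 1107 to 1572 CPM (0.51 ± 0.03). The sphingosine phosphate receptor genes S1pr3 and S1pr2 fell, by 1.26 ± 0.09 and 0.59 ± 0.06.

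Of the effectors, 1 of 13 tested rose and 5 fell, with a median of −0.14 (0 and 8 on library totals). The adenylyl cyclase genes Adcy6 (−0.28 ± 0.05, SE), Adcy1 (−0.30 ± 0.07) and Adcy2 (−0.60 ± 0.18) and the phospholipase gene Plcb1 (−0.58 ± 0.16) fell. The effector gene that rose, Adcy7 (0.25 ± 0.08), is also an adenylyl cyclase gene and is named after its values were seen. Among arrestins and Gα modulators, 1 of 8 rose and 2 fell, with a median of −0.23 (0 and 4 on library totals). Arrb1, which uncouples receptors from G proteins, fell from 19.7 to 8.65 CPM (−1.19 ± 0.11, SE), Gpsm2 fell by 0.78 ± 0.10, and Ric8a, which helps to load Gα subunits, rose by 0.21 ± 0.05. Gpsm2 also acts in orienting the mitotic spindle, and all 10 cell division markers fell in these libraries. Their part in the fall of Gpsm2 was not tested. Without treated replicate 1, 5 genes of this list were called in place of 3.

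The Rgs4, Rgs5 and Rgs16 proteins are known to be degraded through a cysteine at their start by the oxygen-sensing N-degron pathway, which RNA levels do not show. Of 6 genes of that pathway, 2 rose and none fell. The ubiquitin ligase gene Ubr1 rose from 80.0 to 108 CPM (0.44 ± 0.05, SE, edgeR adjusted p = 1.63e-07) and the aminopeptidase gene Metap1 by 0.17 ± 0.05. The cysteine dioxygenase gene Ado, the arginyl transferase gene Ate1, Ubr2 and Metap2 had log2 fold changes from −0.04 to 0.04 and were not called. Ado, Ate1 and Ubr2 are named after their values were seen.

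**Figure D5:**
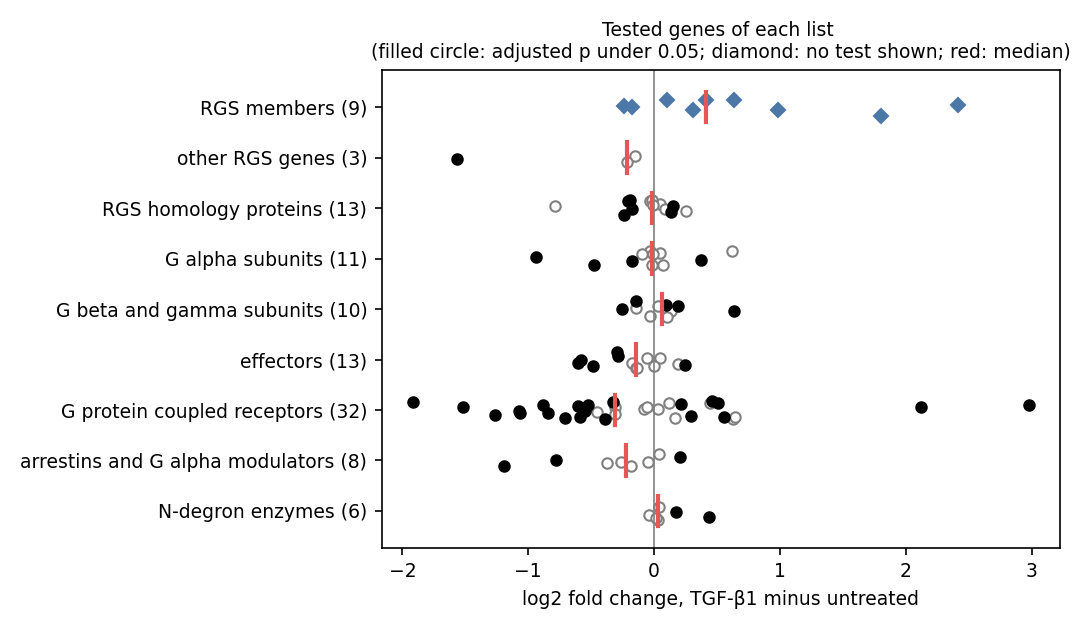
Log2 fold change of each tested gene, TGF-β1 minus untreated, by list, with the number of tested genes in brackets and a red bar at the median. Filled circles are genes with an edgeR adjusted p under 0.05, and the RGS genes are drawn as diamonds with no test. Receptors spread from −1.92 to 2.98 around a median of −0.31, and the median of the Gα list is −0.01. The highest receptor value is that of Htr2b, named after its values were seen, with 17 reads over the untreated and 132 over the treated libraries. Htr2b passed the count filter through the treated libraries, which favours genes that differ.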

How the data were processed

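RNA of 8 cultures was sequenced after enrichment with oligo(dT), per the labels' protocols. Tools listed in the submitters' processing notes are HISAT2, CASAVA, Subread and featureCounts, without versions, and the builds are GRCm38 and mm10, whereas the series design names mm39. The coordinates of the deposited table overlap the same gene in the GRCm39 annotation GENCODE M39 for 99.9% of 21630 coding genes and are read as GRCm39. The deposited counts are whole reads per gene, not normalized. The FPKM values deposited by the authors were checked to be counts divided by gene length and multiplied by 1 factor per library.

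Genes were kept with filterByExpr (minimum count 10, minimum total 15), which left 13960 of 56748. In R 4.3.3, counts were scaled by TMM, and edgeR 4.0.16 (glmQLFit, glmQLFTest) fitted group alone. P-values are two-sided, Benjamini-Hochberg adjusted over the 13960 genes, and called under 0.05. The script was tested on simulated data. CPM is the count relative to the TMM-scaled total, and the SE is the size of the log2 fold change over the square root of F. P-values set the difference between the groups against the spread between these cultures.

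The RGS genes and the gene lists were chosen with earlier results of these data known. Named genes are all RGS genes, up to 4 called genes with the smallest p and the most abundant tested gene of each pathway list, the most abundant of each marker list, and genes whose exons overlap an RGS gene. Any other gene is marked in the text as named after its values were seen. Alternatives were RLE scaling, library totals, other filters, DESeq2 1.42.0, limma 3.58.1 on log2(FPKM + 1) and log2(FPKM + 0.1), the replicate number as a block, and each library left out. Amino acid sequences were not used here, and 1 result that the naming rule calls for is not reported here.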

Additional observations from a re-analysis of the deposited data

Results flagged for a closer look

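Rgs14 stood out among the untreated libraries. Replicate 4 was at 0.537 CPM and the others at 0.0664 to 0.135 CPM, so that the gap to the nearest library took 0.855 of the range, above the 95% critical value of Dixon's test for 4 samples. The values rest on 9 reads against 1, 2 and 2, and the exact 95% Poisson interval of 9 reads is 4.12 to 17.1. In all, 20 groups of 4 were examined, and chance flags about 1 in 20.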

How the results depend on the processing

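The 19 results were recomputed under 16 alternatives each, 304 values in all. No log2 fold change of a tested RGS gene changed sign. Counts of called genes have no sign and were compared by size only. The log2 fold changes of Rgs4, Rgs5 and Rgs17 were 1.72 to 1.91, 2.29 to 2.57 and 0.91 to 1.09 in the count models. With limma on log2(FPKM + 1) they were 1.19, 0.68 and 0.32, and those of Rgs2, Rgs16 and Rgs3 were 0.27, 0.20 and −0.16, a scale that understates low genes. With 1 library left out, those of Rgs12, Rgs17 and Rgs3 were 0.39 to 0.43, 0.92 to 1.09 and −0.27 to −0.21. The call of Rgs2 was lost under 10 of 16 alternatives, and Rgs16 was called under limma on both FPKM scales. The cause was not tested. Of the RGS genes, 5 or 6 were called under every alternative.

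The labels do not say whether the replicate numbers pair the cultures. Deviations of libraries with the same number correlated at −0.073 to 0.077, and only those of replicate 4 correlated best with their own number. The highest correlations were across numbers, 0.142 for untreated replicate 2 with treated replicate 1 and 0.131 for untreated replicate 1 with treated replicate 2. With so few libraries, these correlations cannot decide whether cultures were paired. With the replicate number as a block, 4971 genes were called against 5030, and 6 RGS genes. With library totals 1301 genes were called higher and 3673 lower, against 2451 and 2579, and 1 N-degron gene was called against 2. Calls among β and γ subunits went from 5 to 2 under limma on log2(FPKM + 1) and on log2(FPKM + 0.1), and to 2 to 5 with 1 library left out, with 3 without untreated replicate 1 and 2 without untreated replicate 2 or 4. Those among arrestins and Gα modulators were 3 to 5, with 5 without treated replicate 1. With fewer than 20 reads per library, Rgs14 allows no statement on a difference.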
